A study of Caenorhabditis elegans with 2 samples.

Results

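The genes described here are the 129 nuclear genes of Caenorhabditis elegans that Ensembl release 115 annotates with the biotype snRNA, out of 46890 nuclear genes. They comprise 30 spliced leader RNA genes, whose symbols start with sls-, and 99 other snRNA genes. A gene was counted as occupied when the summit of a ChIP-seq peak lay in its body or within 200 bp on either side. The rule for choosing the genes uses the annotation and no measured value, but it was set with earlier results of these data known.

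The measurements were chromatin immunoprecipitation sequencing of T26A8.4, which RefSeq annotates as a C3H1-type domain-containing protein. The worms were of strain OP692, which carries the integrated transgene wgIs692(T26A8.4::TY1 EGFP 3xFLAG; unc-119(+)) in an unc-119(tm4063) mutant background. Whole L4 larvae aged 48 hours, grown from starved L1 larvae after bleaching, gave 1 group of 2 biological replicates, and sonicated chromatin was precipitated with an antibody against GFP. The design has no second condition, no tissue is resolved in whole worms, and the labels name no change of the endogenous T26A8.4 gene. The comparisons are therefore among the snRNA genes, between the replicates, and with other genes on the same peak lists.

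Small nuclear RNAs are short, noncoding parts of the machinery that splices pre-mRNA. In nematodes, spliced leader RNAs donate a short leader to the 5′ ends of many mRNAs by trans-splicing. The SL1 RNAs come from the sls-1 genes, which in C. elegans sit in the tandem repeat that also carries the 5S ribosomal RNA genes, and the SL2 RNAs, which serve mainly the downstream genes of operons, come from dispersed sls-2 genes. Most snRNA genes of animals are transcribed by RNA polymerase II and U6 genes by RNA polymerase III, and both kinds depend on an upstream proximal sequence element bound by the complex SNAPc.

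The sls-1 and sls-2 RNAs differ in sequence as well as in location, and 5 genes are shown here in full because they span the occupied and the unoccupied spliced leader genes. Capitals mark the leader, taken from the annotated start to the first G of the first GGT at or after position 18. In sls-1.10 this rule takes in a first base, C, before the GGTTT with which the other genes shown begin. Sequences are from RefSeq on the WBcel235 build, 5′ to 3′ on the gene's strand. The genes lie at chrII:5844865-5844974 (sls-2.1, plus strand), chrIII:12250465-12250575 (sls-2.8, plus), chrIV:9130721-9130829 (sls-2.10, minus), chrIII:7141391-7141499 (sls-2.16, plus) and chrV:17120694-17120791 (sls-1.10, minus).
sls-2.1: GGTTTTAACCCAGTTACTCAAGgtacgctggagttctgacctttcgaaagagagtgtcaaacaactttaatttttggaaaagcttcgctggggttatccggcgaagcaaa
sls-2.8: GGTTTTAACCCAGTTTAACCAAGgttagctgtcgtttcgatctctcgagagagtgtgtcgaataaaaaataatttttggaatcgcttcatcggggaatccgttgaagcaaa
sls-2.10: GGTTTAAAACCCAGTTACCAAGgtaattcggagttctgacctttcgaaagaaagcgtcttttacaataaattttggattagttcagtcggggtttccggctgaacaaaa
sls-2.16: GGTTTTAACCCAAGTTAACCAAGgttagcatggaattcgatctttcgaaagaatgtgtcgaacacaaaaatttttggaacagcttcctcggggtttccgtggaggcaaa
sls-1.10: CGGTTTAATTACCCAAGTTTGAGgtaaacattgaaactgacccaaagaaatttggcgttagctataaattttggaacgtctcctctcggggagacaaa

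The other snRNA genes fell into sequence groups when genes of at least 75% identity were linked, a grouping made after the sequences were seen. Each group is named here by 1 member, because the annotation used assigns no U number to these genes. The genes sup-6 and C52E4.8, each the strongest of its group, are shown to give the form of such RNAs. Capitals in sup-6 mark letters that pair with the 5′ splice site in U1 of yeast and human, and C52E4.8, of a group of 5 genes, has no letters marked. Their positions are chrII:12944803-12944967 (sup-6, minus strand) and chrV:11980118-11980261 (C52E4.8, plus).
sup-6: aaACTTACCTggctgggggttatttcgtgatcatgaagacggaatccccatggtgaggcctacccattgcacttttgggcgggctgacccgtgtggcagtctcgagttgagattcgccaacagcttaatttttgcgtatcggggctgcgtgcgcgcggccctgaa
C52E4.8: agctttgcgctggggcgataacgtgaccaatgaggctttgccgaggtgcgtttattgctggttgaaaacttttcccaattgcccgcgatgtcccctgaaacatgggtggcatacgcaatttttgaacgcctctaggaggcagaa

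The letters ACTTACCT were in 12 of the 13 genes of the sup-6 group. Further groups were those of W05B2.8, with 24 genes, and F38E11.10, with 12. Another group of 19 genes, led by F08G2.10, had the letters GTAGTATC, which pair with the branch site in U2 of yeast and human, in 18 of them. Similarity within a group varied. The median identity to W05B2.8 was 100%, since 14 genes, W05B2.8 included, have exactly the same sequence. The median identity to sls-2.1 was 75.5%, with a range from 67.3% to 92.7%.

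Peaks were read from lists the authors had deposited. Most counts below use the thresholded list of both replicates together, called the combined list, which holds 2993 summits, and the replicates' own thresholded lists, with 1933 and 2141 summits for replicates 1 and 2. The ranked lists keep weak regions too and hold 70405 and 66732 summits. Peak signal is the authors' score, with no stated unit, so it is compared within a list only, and its replicate values are given side by side. The peak lists carry no read depth, and the depth behind each value is unknown.

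A combined summit lay at 39 of the 129 snRNA genes (30.2%, 95% Wilson interval 23 to 38.6). Among all nuclear genes in windows built the same way the share was 5.75%, and a window of the median length of these, 509 bp, held a summit at 1.43% of genome positions. The spliced leader genes had a summit in 16 of 30 (53.3%, 36.1 to 69.8) and the other snRNA genes in 23 of 99 (23.2%, 16 to 32.5). The intervals cover counting error only, and genes of 1 repeat or sequence group are not independent, so no test was made of the difference.

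Other short noncoding genes differed widely from one another on the same windows. Genes for tRNAs had a summit in 46.4%, genes for snoRNAs in 24.3%, protein-coding genes in 8.17% and miRNA genes in 4.98%. The snRNA share thus lay below that of tRNA genes, near that of snoRNA genes and above those of the other classes.

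The replicates gave nearly equal counts. In replicate 1 alone, 16 of 30 spliced leader genes and 21 of 99 others (21.2%) had a thresholded summit, where the share over all nuclear genes was 4.15%. In replicate 2 alone the counts were 16 of 30 and 22 of 99 (22.2%), against 4.42% of all nuclear genes. The authors' conservative list, which holds 2810 summits, had one at 16 spliced leader genes and 22 others, against 5.49% of all genes.

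In the ranked lists the difference from other genes was smaller. A ranked summit lay at 76 of the 129 snRNA genes in replicate 1 (58.9%), where 38.6% of all nuclear genes and 30% of window positions held one. Replicate 2 had 66 of 129 (51.2%), against 36% of all genes and 27.8% of positions. The ranked list behind the combined list also had 66 of 129, against 34.4% of all genes. For the 99 genes other than spliced leader genes the shares were 59.6% and 50.5% in replicates 1 and 2, so most of their ranked summits lay below the threshold.

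The spliced leader genes split by family. Of the 18 sls-2 genes, 16 had a summit in the combined list (88.9%, 67.2 to 96.9), and the same 16 had one in both replicates' thresholded lists and in the conservative list. Of the 12 sls-1 genes, 0 had a summit in any thresholded list, with a Wilson interval from 0 to 24.2%. The share of 53.3% over all spliced leader genes is therefore a mixture of these families and describes neither.

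**Figure D1:**
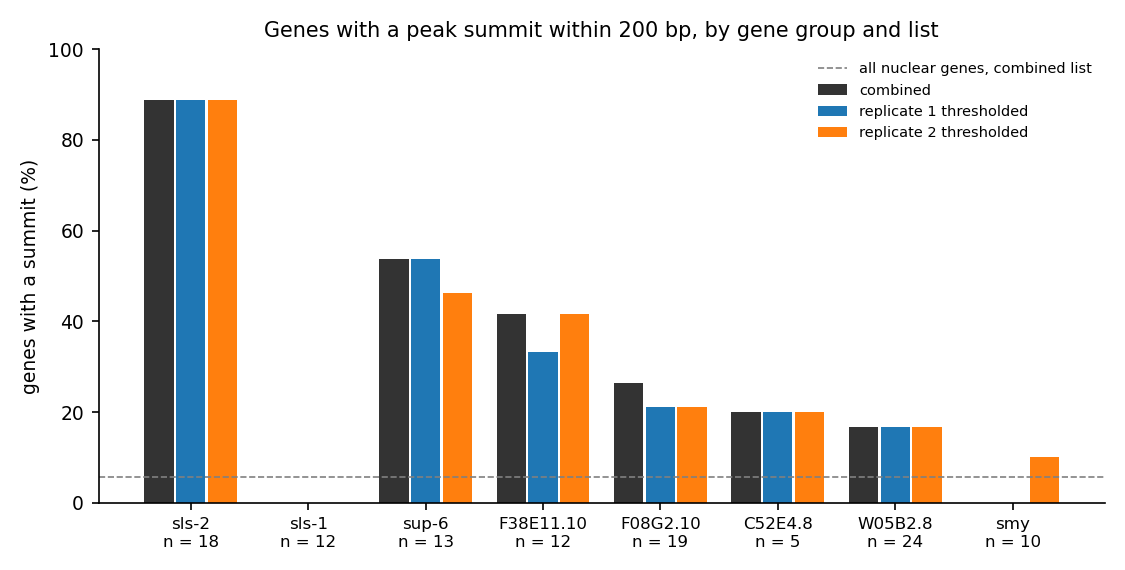
Percentage of genes with a peak summit within 200 bp (vertical axis) for the sls-2, sls-1 and smy genes by symbol and for 5 sequence groups named by a member, in the combined list and in each replicate's thresholded list. The bars reach 88.9% for sls-2 and 53.8% for the sup-6 group in the combined list, sls-1 genes have none, and the dashed line marks the 5.75% of all nuclear genes.

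The strongest member was sls-2.1, with a signal of 1217 in the combined list, 557 in replicate 1 and 610 in replicate 2, which ranks 11 of 2993 combined peaks. On chromosome I, sls-2.4 followed with 1159 in the combined list and 538 and 562 in the replicates. The next spliced leader gene was sls-2.2, with 810 in the combined list and 395 and 402 in the replicates. All of these stood far above the median combined signal of 123, and the replicates ordered them in the same way. A combined summit at sls-2.1 and one at sls-2.4 also lay in a protein-coding promoter window, as defined below, whereas none at sls-2.2 did.

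Signal spanned a wide range across the occupied sls-2 genes, from 1217 at sls-2.1 to 118 at sls-2.13, with a median of 246. After the first 3 came sls-2.8 at 450 (209 and 219 in replicates 1 and 2), sls-2.9 at 331 (163 and 148) and sls-2.18 at 306 (149 and 148). In all, 15 of the 16 occupied sls-2 genes exceeded the median combined signal. The 2 exceptions to occupancy, sls-2.6 and sls-2.11, had no summit in any of the 7 lists, ranked lists included, although 100% and 93.5% of the 50-base stretches in their windows occur once in the genome.

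The leaders of the sls-2 genes took 11 forms over 18 genes. The leader of sls-2.1 was shared exactly by sls-2.2, sls-2.3 and sls-2.4, and these 4 genes had combined signals of 1217, 810, 146 and 1159. The genes whose leaders differed from it by 1 to 4 edits reached at most 450. Low signal was thus found with either kind of leader, and sls-2.3 lies in the same peak interval of 1060 bp as sls-2.2, its neighbour on the other strand.

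The sls-2 genes were occupied on every chromosome that carries them. All 3 on chromosome II and all 6 on III had a combined summit, as did 4 of 5 on IV and 3 of 4 on I. On III, sls-2.5, sls-2.16 and sls-2.18 are neighbours and had separate summits with signals of 262, 299 and 306. Of the 16 occupied genes, 4 had a summit that also lay in the promoter window of a protein-coding gene, from 1000 bp upstream to 200 bp downstream of its start, and 12 did not. The 4 were sls-2.1, sls-2.4, sls-2.7 and sls-2.8.

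The sls-1 genes sit with 13 rRNA genes between 17116154 and 17134107 on chromosome V. Short stretches of this repeat occur many times: of the 50-base stretches in the windows of the sls-1 genes, between 0% and 29.4% (median 0%) occur once in the genome, against 80% to 100% (median 94.2%) for sls-2 genes and 93.6% of positions genome-wide. In the ranked lists, sls-1.12 had a summit in replicate 1 (signal 6.23, at −185 bp from its start) and none in replicate 2, and sls-1.9 had one in the ranked list behind the combined list (signal 4.68, +19 bp). The sources used here do not say how the authors treated reads that match several places, and its part in the absence of sls-1 summits was not tested.

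The array was not empty in the ranked lists. It held 16 ranked summits in replicate 1, or 0.891 per kb, where chromosome V as a whole had 0.587 per kb, and 12 in replicate 2 (0.668 against 0.537 per kb). The ranked list behind the combined list had 3 peaks there at the maximum score of 1000. The combined list leaves them out, as it does 31 ranked peaks in all that passed the score of 830.

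Those peaks had signals of 137, 169 and 184, all above the median of the combined list. Their summits lay 240, 142 and 132 bp from the lower coordinate of the 5S rRNA genes rrn-4.6, rrn-4.7 and rrn-4.12. Measured from the nearest sls-1 genes, sls-1.11, sls-1.9 and sls-1.4, they lay at −417, −315 and −305 bp from the start, outside the 200 bp flank. Replicate 1 had 2 of the positions past the same score (signals 129 and 87.3) and replicate 2 had 2 (73.8 and 101), with the one near rrn-4.12 in both. The thresholded lists of the replicates leave these out too, so the combined list and both replicates' thresholded lists have 0 summits over the whole array.

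**Figure D2:**
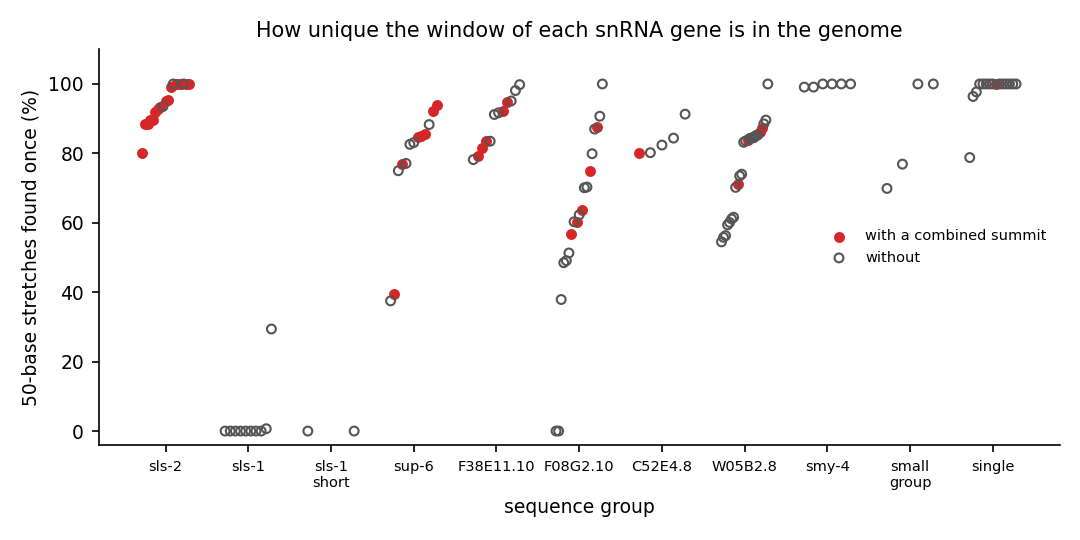
Percentage of 50-base stretches within each gene's window that occur once in the genome (vertical axis), by sequence group, with 1 point per gene and filled points for genes with a combined summit. The 2 sls-1 genes of 68 bp are shown apart as sls-1 short. Other groups of under 5 genes are pooled as small group and genes with no relative as single. The sls-1 genes sit at 0% to 29.4%, whereas the sls-2 genes span 80% to 100%.

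Across all snRNA genes, few combined summits lay in windows with little unique sequence. Where under 50% of the 50-base stretches were unique, 1 of 19 genes had a summit, and 12 of the 19 are sls-1 genes. Between 50% and 90% it was 22 of 61 (36.1%), and from 90% up it was 16 of 49 (32.7%). The one gene in the lowest class was T27E4.11, of the sup-6 group, with 39.4% of stretches unique.

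Among the other snRNA genes, the sup-6 group was occupied in 7 of 13 (53.8%, 29.1 to 76.8). Its strongest members were sup-6 and sup-39, which carry the names of genetic suppressors. The signal of sup-6 was 833 in the combined list, 391 in replicate 1 and 371 in replicate 2. It ranked between sls-2.4 and sls-2.2 in the combined list and just below sls-2.2 in both replicates. For sup-39 the values were 454, 221 and 201, and for T08G5.11 they were 356, 161 and 177. F08H9.11, F08H9.10, H27M09.6 and T27E4.11 had combined signals of 247, 200, 149 and 108. Those of T27E4.11 in the ranked lists were 59 and 54, and it passed in neither replicate alone. The miRNA-named gene mir-1831, a 22 bp gene annotated as snRNA, lies inside sup-39, so its thresholded summits in both replicates (221 and 201) are those of sup-39.

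The F38E11.10 group was occupied in 5 of 12 genes (41.7%, 19.3 to 68). F38E11.10 had a combined signal of 350, with 127 in replicate 1 and 191 in replicate 2. The others lay close together, at 163 for F32B5.9, 161 for F42C5.12, 144 for ZK897.4 and 141 for F07C6.5. F32B5.9 passed in replicate 2 alone (93.8, at −23 bp from its start). Its ranked summit in replicate 1 had a signal of 87.8 and a score of 803, below the threshold, and lay at +202 bp. The combined list had summits at both places, at 0 bp (163) and +224 bp (160), and the ranked list of replicate 2 had 2 summits in the window.

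In the W05B2.8 group only 4 of 24 genes had a combined summit (16.7%, 6.68 to 35.9), and all 4 lay on chromosome III. F54C8.8, F54C8.9 and F54C8.10 of this group also lie on chromosome III and had none. W05B2.8 itself had a signal of 684 in the combined list, 325 in replicate 1 and 342 in replicate 2. F54D8.7 had 431, with 171 and 248. R07E5.16 and C28A5.7 had 232 and 230 in the combined list, and the values in replicates 1 and 2 were 117 and 129 for the first and 109 and 126 for the second. All 4 were in both replicates' thresholded lists. W05B2.8, R07E5.16 and C28A5.7 are among the 14 genes of identical sequence, so members with the same RNA were found both with and without a summit. The windows of the whole group were 54.5% to 100% unique, and those of the occupied genes 71.3% to 87.2%.

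In the F08G2.10 group, most calls were not shared by both replicates. It was occupied in 5 of 19 (26.3%, 11.8 to 48.8), led by F08G2.10 with 274 in the combined list and 107 and 134 in the replicates. The combined signals of F56H6.14, W04G5.11, Y57G11C.35 and F08G2.9 were 156, 152, 126 and 99. Of these 5 genes, F08G2.10 was in both replicates' thresholded lists, 3 were in 1 and F08G2.9 was in neither. F08G2.9 had the lowest combined signal of any occupied snRNA gene and a score of 839, just past the threshold of 830.

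Of the smaller sets, C52E4.8 was the 1 occupied gene of 5, with a signal of 453 in the combined list, 181 in replicate 1 and 241 in replicate 2. Its peak also lay in the promoter window of snr-4, which encodes an Sm protein, at −375 bp from that gene's start. The 10 smy genes encode SmY RNAs, which nematodes have and which are linked to trans-splicing. They had 0 combined summits of 10 (Wilson interval 0 to 27.8%), in windows that were 99.1% to 100% unique. The gene smy-1 had a thresholded summit in replicate 2 (signal 45.5), 274 bp from its start, where the ranked list of replicate 1 had a summit of 13.1 at 87 bp. M163.13 on the X chromosome, which has no close relative in the set, had a combined signal of 157 and ranked signals of 99.7 and 56.7. The scores of those ranked summits were 59 in replicate 1 and 753 in replicate 2, so it passed in neither replicate.

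Replicate agreement was complete for the spliced leader genes. All 16 occupied genes passed in both replicates, and the other 14 in neither. Of those 14, however, 12 are sls-1 genes, in the array where the replicates' thresholded lists hold 0 summits. The agreement on them is therefore that of the lists over the whole array. Among the 23 other snRNA genes with a combined summit, 16 passed in both replicates, 4 in 1 and 3 in neither. A further 5 passed in a replicate with no combined summit. These included F08G2.11, in both replicates (74.6 and 125) and in the conservative list (210), R05D7.6 in replicate 2 (70.9, with no ranked summit in replicate 1) and F40G12.13 in replicate 1 (67, with none in replicate 2).

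A total of 7 genes passed in 1 replicate only. W04G5.11, Y57G11C.35 and F40G12.13 did so in replicate 1, and F32B5.9, F56H6.14, R05D7.6 and smy-1 in replicate 2. In the ranked lists, W04G5.11 had 61.3 in replicate 1 and 75.4 in replicate 2. Y57G11C.35 had 87.6 and 33.2, and F56H6.14 had 46.5 and 99.8. By signal, W04G5.11 ranked 1729 of 70405 in replicate 1 and 1156 of 66732 in replicate 2, and its strongest summits lay at different places. They were at +41 bp (score 986) in replicate 1 and at +160 bp (score 293) in replicate 2. Y57G11C.35 ranked 863 in replicate 1 and 7429 in replicate 2, and F56H6.14 ranked 3272 and 717.

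Across the 34 genes with thresholded summits in both replicates, the signals had a Spearman rho of 0.90, and across the 16 spliced leader genes it was 0.95. In the ranked lists it was 0.92 over 59 genes. These values describe genes of the same 2 libraries, which share the sequence and uniqueness of each window.

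**Figure D3:**
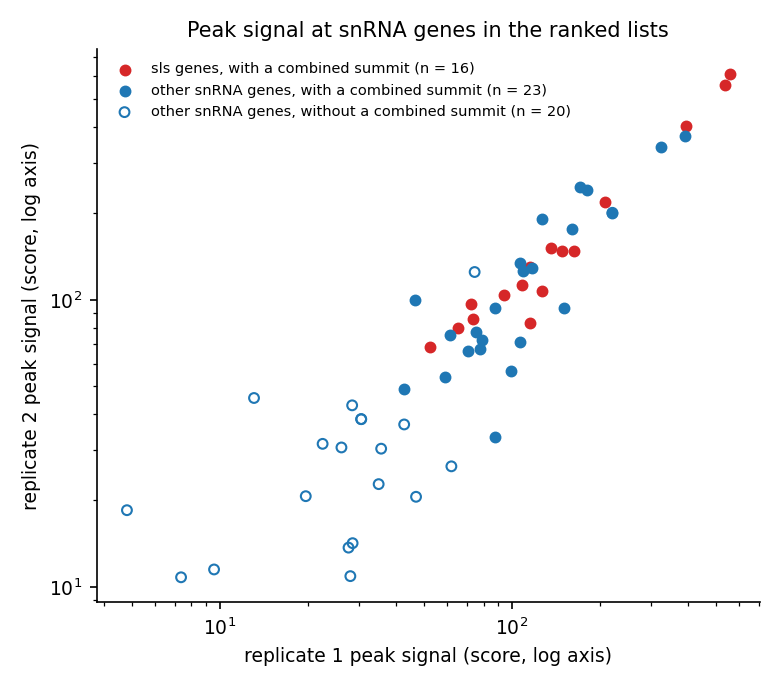
Peak signal (the authors' score, log axes) of the strongest ranked summit at each snRNA gene in replicate 1 (horizontal) and replicate 2 (vertical), with filled points for genes with a combined summit. The 16 spliced leader genes lie from 52.3 and 68.6 (sls-2.13) up to 557 and 610 (sls-2.1), and genes without a combined summit are mostly at the lower left.

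Within and around the genes, summits took different places in different groups. The strongest summit lay past the 3′ end in 17 of the 39 occupied genes, inside the gene in 15 and upstream of its start in 7, in the combined list. These counts were 13, 14 and 10 in replicate 1 and 23, 6 and 9 in replicate 2, so the share inside the gene depended on the replicate. For the sls-2 genes they were 9, 5 and 2 in the combined list, 8, 5 and 3 in replicate 1 and 10, 3 and 3 in replicate 2. At sls-2.1 the strongest summit lay at −23 bp and a second one, of signal 615, at +178 bp, 69 bp past the end. In the combined list and in replicate 2, sls-2.4 had its summit at +152 bp and sls-2.8 at +157 bp. In replicate 1 their strongest summits lay at −4 bp and +78 bp.

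In 11 genes the window held 2 combined summits, 200 to 224 bp apart. At sup-6 they lay at +224 bp (signal 833) and +23 bp (527), and at C52E4.8 at −20 bp (453) and +187 bp (397). The smallest gap between any neighbouring summits of the combined list was 199 bp, and peaks at these genes had a median width of 420 bp, which limits how finely positions can be read. Between replicates, the nearest summit at the same gene differed by a median of 31 bp, and by at most 50 bp in 22 of 34 genes.

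Measured from the gene start, the summit closest to it lay at a median of +58 bp in the combined list, +29 bp in replicate 1 and +94.5 bp in replicate 2. Over the spliced leader genes the medians were +104, +87.5 and +105 bp, and over the other genes +46, +15 and +82.5 bp. In the ranked lists, at the 39 genes with a combined summit, the medians were nearer the start, at +11 bp in replicate 1 and +22 bp in replicate 2. Ranked lists hold more summits, and added summits can only bring the closest one nearer. For the sls-2 genes in replicate 1 this median was +87.5 bp in the thresholded and +18.5 bp in the ranked list. That of their strongest summit was +114 bp in both. In replicate 2 the median of their closest summit was +105 bp in both lists. All of these medians lay downstream of the start, but their distance from it depended on the list. The window reached 200 bp before the start but 200 bp past the gene's end, so its centre also lay downstream. The downstream direction is therefore partly set by the window rule.

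**Figure D4:**
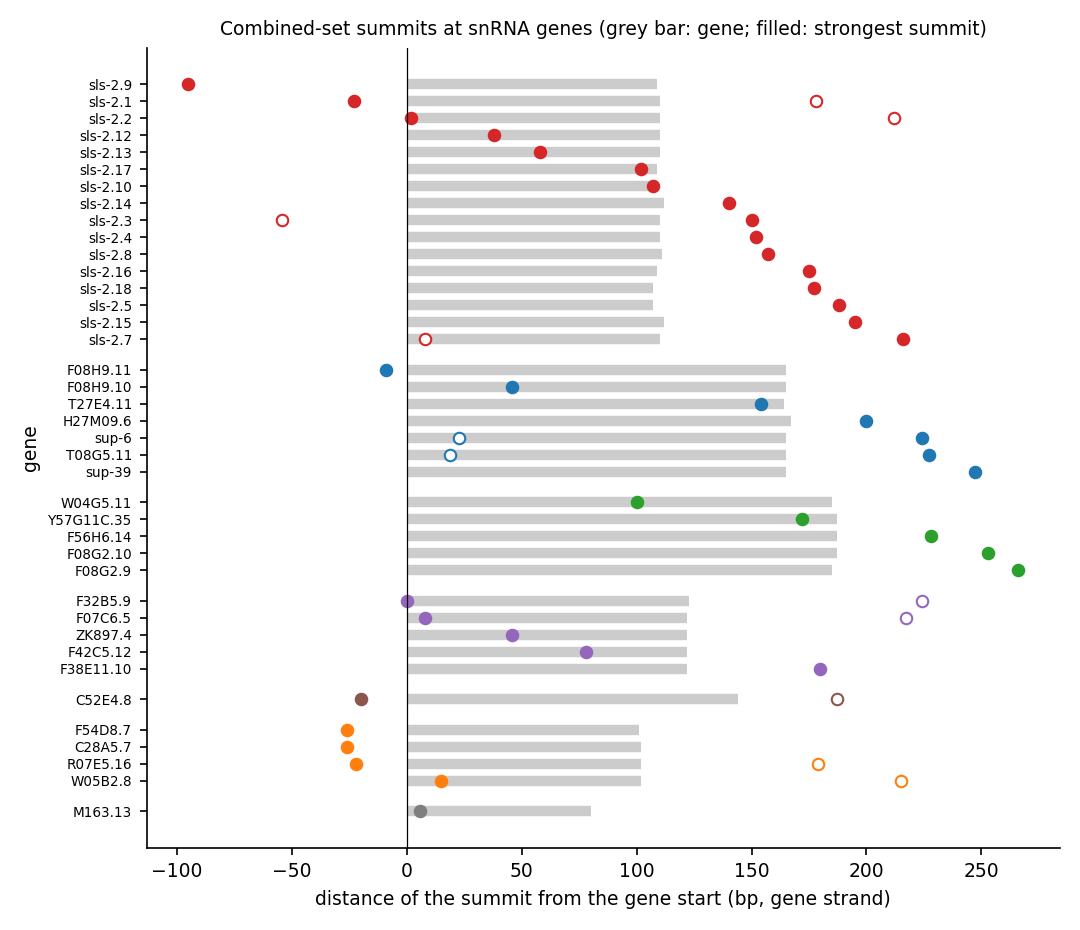
Distance of each combined summit from the annotated gene start in bp on the gene's strand (horizontal axis), with 1 line per occupied gene grouped by sequence; grey bars span the gene, filled points mark the strongest summit and open points a second one. The 4 genes of the W05B2.8 group have their strongest summits between −26 and +15 bp, while 9 of the 16 sls-2 genes have theirs past the 3′ end.

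Positions in the W05B2.8 group lay close together. The strongest summits of its 4 occupied genes lay at −26, −26, −22 and +15 bp in the combined list, none of them past the end. In replicate 1 they ranged from −26 to −4 bp and in replicate 2 from −28 to −3 bp. All 4 carry TATATAA about 30 bp before the start.

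The upstream sequences were searched for 4 short motifs, chosen after the sequences were seen, on the gene's strand within 100 bp of the start. They were CGNAACCC, where N is any base, GCGGAACCC, which overlaps it, TGTCGG and TATATAA. The 80 bases before the start are shown for 9 genes to compare genes with and without summits. Capitals mark CGNAACCC, TGTCGG and TATATAA. The positions are chrIII:12250385-12250464 (sls-2.8, plus strand), chrIII:11090524-11090603 (sls-2.14, minus), chrII:12944968-12945047 (sup-6, minus), chrIV:9444562-9444641 (F38E11.10, plus), chrII:13829492-13829571 (F08G2.10, minus), chrV:14094700-14094779 (smy-4, minus), chrIII:10989599-10989678 (W05B2.8, plus), chrIII:5080899-5080978 (F54D8.7, minus) and chrX:14476787-14476866 (M163.13, plus).
sls-2.8: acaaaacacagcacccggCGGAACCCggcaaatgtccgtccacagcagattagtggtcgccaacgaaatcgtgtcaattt
sls-2.14: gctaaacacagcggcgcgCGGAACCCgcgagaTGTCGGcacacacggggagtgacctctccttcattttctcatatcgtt
sup-6: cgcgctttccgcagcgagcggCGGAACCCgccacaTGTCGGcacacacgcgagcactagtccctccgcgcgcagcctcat
F38E11.10: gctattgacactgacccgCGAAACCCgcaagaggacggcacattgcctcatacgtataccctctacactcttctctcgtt
F08G2.10: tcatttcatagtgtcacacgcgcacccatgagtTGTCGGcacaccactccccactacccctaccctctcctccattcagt
smy-4: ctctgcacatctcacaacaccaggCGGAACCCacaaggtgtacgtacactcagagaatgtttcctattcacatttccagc
W05B2.8: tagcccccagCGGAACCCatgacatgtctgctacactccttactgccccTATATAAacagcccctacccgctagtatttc
F54D8.7: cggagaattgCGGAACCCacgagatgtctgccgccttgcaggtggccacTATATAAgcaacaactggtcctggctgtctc
M163.13: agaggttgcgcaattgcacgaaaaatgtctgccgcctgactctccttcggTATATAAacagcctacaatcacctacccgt

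CGNAACCC was in 46 of the 129 genes (35.7%) and in 0.22% of 19973 protein-coding genes over the same distance, at a median position of −61 bp. The longer GCGGAACCC was in 30 genes (23.3%) and in 0.015% of protein-coding genes. TGTCGG was in 42 genes (32.6%, against 0.781%), at a median of −47 bp. TATATAA was in 18 genes (14%, against 2.83%), of which 15 belong to the W05B2.8 group, at a median of −30 bp.

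Genes with these letters were not all occupied. Of the 46 genes with CGNAACCC, 22 had a combined summit (47.8%), and of the 83 without it 17 did (20.5%). For TGTCGG the counts were 22 of 42 (52.4%) and 17 of 87 (19.5%), and for TATATAA 5 of 18 (27.8%) and 34 of 111 (30.6%). The counts overlap, since many genes carry more than 1 motif, and they partly restate the sequence groups.

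Within the groups the letters and the summits did not always go together. In the sls-2 group, which includes ZK1251.14, all 10 genes with CGNAACCC had a summit, as did 6 of the 9 without it. Neither sls-2.6 nor sls-2.11 has the letters, and both have TGTCGG, at −72 bp in sls-2.6 and at −47 bp in sls-2.11. All 6 genes of the smy-4 group carry CGNAACCC, and none had a combined summit. In the F38E11.10 group 11 of 12 carry it and 5 had one, and in the F08G2.10 group none carries it and 5 had one. The sls-1 genes carry none of the motifs in this window.

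By annotation, 25 of the 39 occupied genes had no summit inside a protein-coding promoter window, and 14 had one. In introns of protein-coding genes, 5 of 7 spliced leader genes and 10 of 48 others were occupied. Outside protein-coding genes it was 11 of 23 spliced leader genes, where the other 12 are the sls-1 genes, and 10 of 39 others. Of the 12 genes that overlap a protein-coding exon, none of them a spliced leader gene, 3 were occupied. Besides the 4 sls-2 genes named above, the 14 were sup-39, C52E4.8, F54D8.7, T08G5.11, F38E11.10, F08G2.10, F08H9.11, F08H9.10, H27M09.6 and W04G5.11. For the 14 genes with a shared summit, a contribution of the protein-coding promoter cannot be told apart from that of the snRNA gene.

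The protein-coding genes of the same pathway were examined by a combined summit in their promoter windows, which 7.06% of all protein-coding genes had. None of the 8 genes matched for SNAPc and the TATA-binding protein had one, nor did any of the 3 for proteins of the spliced leader ribonucleoprotein. For Integrator, which trims snRNA 3′ ends in animals, it was 3 of 10. The summit at ints-4 was strong, with a signal of 823 in the combined list and 365 and 451 in the replicates, at +10 bp from its start. Those of ints-8 and ints-9 were weaker, at 114 and 91.7, and ints-9 passed in replicate 1 only (63) and ints-8 in neither replicate.

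Of the Sm proteins, which form a ring on most snRNAs, 1 of 7 had a promoter summit, which was that of snr-4 at 453, the peak shared with C52E4.8. Of the LSm proteins, which include the ring on U6, 3 of 7 had one: lsm-6 at 147, lsm-3 at 115 and lsm-7 at 109. The summits lay at −75 bp from the start for lsm-6 and −227 bp for lsm-7. That of lsm-3 lay at −977 bp, near the far edge of the window. Of these, lsm-6 (76.6 and 80.2) and lsm-7 (67.7 and 53.6) passed in both replicates and lsm-3 in neither. For RNA polymerase III subunits it was 2 of 6, with rpac-19 at 222 (121 and 94.9 in the replicates) and rpc-2 at 124, which passed in neither replicate. With lists this short, each gene moves the share by 10 percentage points or more, and these counts are a description of the named genes.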

How the data were processed

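ChIP-seq peak lists of 2 replicates were deposited by the authors on the ce11 build, which is WBcel235, as narrowPeak and IDR lists, per the file listings. The peak signal and the integer score in each list are the authors' scores, deposited as such. A q-value is deposited for each peak as −log10, and ranked lists add the irreproducible discovery rate (IDR), also as −log10. Thresholded lists hold ranked lines with a score of at least 830, apart from the lines noted in the report. The sources used here do not state the aligner, the peak caller or the use of a control library. Of the series-level ranked lists, 16 columns of per-input values were not used, and read depth is not in the lists.

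Summits were placed on Ensembl release 115 genes by position, with windows of 200 bp beyond each gene, and named through WormBase identifiers with RefSeq symbols (129 of 129 matched), because Ensembl repeats 9 symbols over 44 of these genes. Uniqueness was the share of 50-base stretches found once in the RefSeq genome. Identity was computed with edlib. Tables used pandas 2.3.3 and NumPy 2.4.6 under Python 3.11.15, and figures Matplotlib 3.10.9. Intervals are 95% Wilson intervals and cover counting error only. The placement of summits was tested on simulated data.

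The members and lists were chosen with earlier results of these data known, and the sequence groups, motifs and uniqueness classes after the sequences were seen. Genes named in full are the 6 spliced leader and 8 other genes of highest combined signal, those in 1 replicate only, the 4 highest without a combined summit and the 2 lowest with one. Other names were chosen after their values were seen. Alternatives were other flanks, lists and overlap rules, and a count of distinct summits in place of genes. Some gene sequences are not reported here.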

Additional observations from a re-analysis of the deposited data

How the results depend on the processing

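With no flank, 6 spliced leader genes and 12 other snRNA genes had a combined summit in the gene body, against 16 and 23 with 200 bp. The share over all nuclear genes was taken with the 200 bp flank only. These counts therefore do not show how the difference from other genes changes with the window. Under the other 10 alternatives each count stayed within 1.5 times its value. Counts of genes lay between 15 and 17 for spliced leader genes and between 16 and 25 for the others. Counting distinct summits in place of genes gave 20 and 30. Leaving out a replicate gave 16 in both cases for spliced leader genes, and 21 to 22 for the others. The median offset of the nearest summit, +58 bp, was +29 to +94.5 bp when a replicate was left out, and +11 bp in the ranked list of replicate 1 and +22 bp in that of replicate 2 at the same 39 genes. No paired analysis was possible because the series has 1 group. With 2 replicates and no read depth, weak summits near the threshold cannot be placed firmly on either side of it, and absence from a list does not show absence of binding, least of all in repeats.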

Other observations

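A pair of snRNA genes on the X chromosome without an sls- symbol, F20D1.21 and F35B3.10, start with letters that differ by 1 edit from the 22 bases of the sls-1.10 leader after its first base. Neither had a thresholded summit. In the ranked list behind the combined list their signals were 40.3 and 20.6. In the replicates' own ranked lists F20D1.21 had 28.5 and 14.2, and F35B3.10 had no summit. Their windows were 69.9% and 76.9% unique, above those of the sls-1 genes in the repeat.

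ZK1251.14, which carries no sls- symbol and fell into the sls-2 group by sequence, had no combined summit, and its ranked signals were 4.81 in replicate 1 and 18.5 in replicate 2. K09C6.12 of the W05B2.8 group, also without a combined summit, had a signal of 89.3 in the ranked list behind the combined list, after F08G2.11 at 210 and mir-1831 at 195, with 46.8 in replicate 1 and no ranked summit in replicate 2.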
